A study of Mus musculus with 9 samples.

Results

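This report describes what changed in the brain nuclei of old mice when their endothelial cells were given the gene for B3GNT3, by pathway and gene family and by cell class. The comparison rests on 6 of the 9 single-nucleus RNA libraries of the study, 3 from aged mice that received AAV-B3GNT3 and 3 from aged mice that received AAV-EGFP. They held 46868 of the 70367 nuclei kept. The libraries are those that the labels place in these groups. The other 3 libraries, from young AAV-EGFP mice, helped to estimate the spread between libraries. Their values are set beside the aged ones only for reference, since a change with age and a change with AAV-B3GNT3 share the aged AAV-EGFP controls.

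All mice were male wild-type C57BL/6, and each library came from 1 mouse and its pooled cortex and hippocampus. The aged mice were 19 months old and the young mice 5 months old. Every mouse carried an AAV of the PHP.V1 capsid at 8e+11 vector genomes, injected behind the eye 8 weeks before the tissue was taken, in which an endothelial Cldn5 minipromoter drove either EGFP alone or EGFP joined to B3GNT3 through a P2A peptide. The controls therefore differ from the treated mice in the enzyme and not in the capsid, the promoter or the reporter, and nuclei other than endothelial nuclei were not a target of the promoter.

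B3GNT3 adds N-acetylglucosamine to the core 1 structure of mucin-type O-glycans and so lengthens these sugar chains on the proteins that carry them. On the brain endothelium such proteins form part of the glycocalyx, the sugar coat that lines the vessel lumen. Nuclei of neurons, glia and vessels were sorted together, so the same libraries also show pathways far from the vessel wall. Cytosolic ribosomal proteins build the ribosome, the respiratory chain and ATP synthase carry out oxidative phosphorylation, and the sterol pathway from acetyl-CoA to cholesterol is, in the adult brain, known mainly from astrocytes and oligodendrocytes. Spliced messages of ribosomal and respiratory genes lie largely in the cytoplasm, and a nuclear preparation holds only a part of them.

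The aged libraries held 47332047 to 74172458 UMIs (unique molecules) in 6503 to 10139 barcodes, and 5908 to 9279 nuclei per library passed the limits of 200 to 5000 genes and 10% mitochondrial UMIs and a doublet score. Median UMIs per kept nucleus were 4607, 4484 and 4037 in AAV-EGFP and 3694.5, 2967.5 and 4281 in AAV-B3GNT3. The groups overlapped through AAV-B3GNT3 replicate 3 alone. Clusters named by marker genes gave 11 classes, all with at least 10 nuclei in every library. Of these, 8 were tested, from 51 to 119 brain endothelial nuclei to 1431 to 3351 excitatory neurons per aged library. Fibroblasts, pericytes and subcortical glutamatergic neurons were not among the classes chosen for testing and are not described. Across libraries, 588 barcode sequences occurred more than once. Libraries of a group differed by more than counting noise, no batch is given in the labels, and classes of 1 library share its free RNA. In nuclei pooled by class, a shift among subtypes and a change of RNA within each nucleus cannot be told apart.

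Few molecules were counted under the mouse gene B3gnt3. It had 0, 0 and 0 UMIs in the endothelial nuclei of the AAV-EGFP libraries and 0, 2 and 4 in those of the AAV-B3GNT3 libraries. The young AAV-EGFP libraries, whose vector carried no B3GNT3, held 6, 3 and 1 (19.1, 10.6 and 4.96 CPM). The AAV-B3GNT3 libraries stood at 0, 8.17 and 22.7 CPM, of which the highest lay above the young libraries and the others within or below their range. They averaged 10.3 ± 11.5 CPM (counts scaled to a common class total; SD, n = 3), and the level that 3 counts over the control group would give is 5.63 CPM. An exact two-sided permutation test gave p = 0.4, where 3 against 3 allows no p below 0.1. Over all barcodes the libraries held 7, 5 and 14 against 11, 11 and 16 UMIs. Whether transcripts of the viral cassette are counted under this mouse gene was not determined, so the row checks neither the labels nor the delivery.

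A gene is called higher or lower here when its Benjamini-Hochberg adjusted p in edgeR's quasi-likelihood test on summed counts is under 0.05, over all genes tested in the class. Lower calls outnumbered higher calls in every class with calls. They made up 1.59% of 16839 genes in excitatory neurons, 1.52% of 13074 in inhibitory neurons, 0.386% of 11916 in striatal-type projection neurons, 2.49% of 12688 in astrocytes and 6.19% of 13225 in oligodendrocytes. Higher calls made up 0.915%, 0.451%, 0.143%, 1.47% and 4.03% in the same order. In brain endothelial cells 0.374% of 4812 genes were lower and 0.0416% higher. In oligodendrocyte precursors 0.0191% of 10461 genes were lower and 0% higher. Microglia had no call in either direction (0% of 8501), although 475 genes had an unadjusted p under 0.05 and DESeq2 called 4. Microglial calls numbered 53 without a filter on low counts, 125 with finer clustering and 211 with doublets kept. Groups that do not overlap were common among single genes. CPM lay higher in all 3 AAV-B3GNT3 libraries for 4.55% (microglia) to 14.4% (oligodendrocytes) of genes tested. It lay lower in all 3 for 6.58% to 16.3% in the same classes. In excitatory neurons these shares were 12.2% and 12.6%, and in astrocytes 11.3% and 12%. The median log2 fold change over all genes tested lay between -0.061 and 0.018 in every class. Each list below is read against these shares and this median, and a list is described in a class when at least 3 members were called in 1 direction at 2 times or more the share of all genes.

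**Figure D1:**
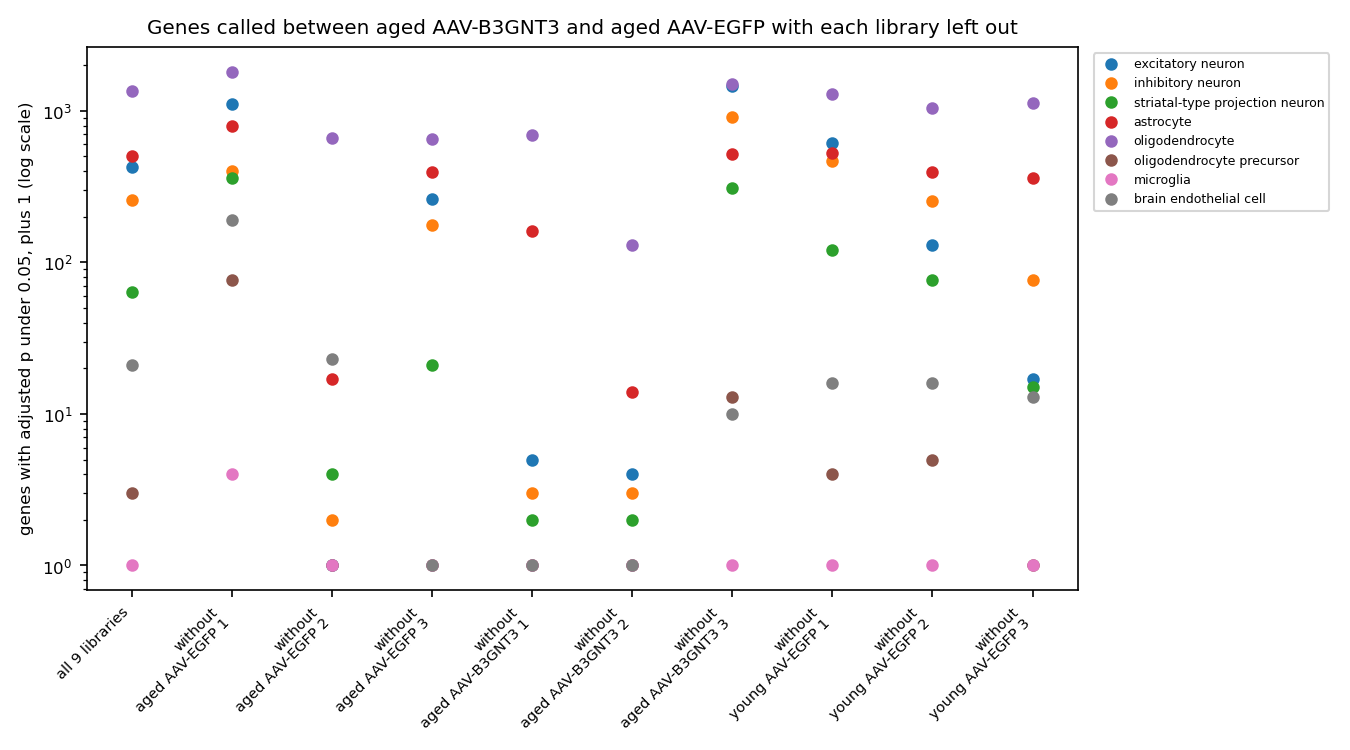
Genes called between aged AAV-B3GNT3 and aged AAV-EGFP (vertical axis, number plus 1, log scale) in the fit of all 9 libraries and with each library left out (horizontal axis), 1 colour per class. Excitatory neurons went from 422 genes to 0 without AAV-EGFP replicate 2 and to 1464 without AAV-B3GNT3 replicate 3, and oligodendrocytes ranged from 129 to 1811.

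These counts depend on single libraries. Without AAV-EGFP replicate 2, AAV-B3GNT3 replicate 1 or AAV-B3GNT3 replicate 2, excitatory neurons had 0, 4 and 3 calls and inhibitory neurons 1, 2 and 2. Without AAV-EGFP replicate 1 or AAV-B3GNT3 replicate 3 they had 1113 and 1464, and 401 and 903. Without AAV-EGFP replicate 3 the excitatory count was 261, without young replicates 2 and 3 it was 129 and 16, and without young replicates 1 and 3 the inhibitory count was 462 and 75. Astrocyte calls went from 502 to 16, 160 and 13 without AAV-EGFP replicate 2 or AAV-B3GNT3 replicates 1 and 2, and to 790 without AAV-EGFP replicate 1. Oligodendrocyte calls went from 1351 to 662, 655, 689 and 129 without AAV-EGFP replicates 2 and 3 and AAV-B3GNT3 replicates 1 and 2. Of the 67 list medians followed through the alternatives, 36 kept their sign and stayed within 1.5 times of their value in all of them, those of the ribosomal list in all 8 classes and of cholesterol synthesis in astrocytes among them. The other 31 did not, and several of their moves are given with the lists and in the closing section.

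By the rule above, the fall of cytosolic ribosomal protein genes was the one described in the most classes. The list holds 79 genes, 47 of the large and 32 of the small subunit, and 5 of them are shown by the 30 bases that span the start of transcription, 20 before and 10 from it, because a run of C and T at the start is the known feature of mRNAs whose translation follows mTOR. The sequences are from RefSeq (GRCm38.p6, the first start listed per gene), and capitals mark a run of at least 8 C or T counted within the last 20 bases printed, 10 before the start and 10 from it. Bases of a run outside that window were not counted. Fau encodes a small-subunit protein fused to a ubiquitin-like peptide, and Rpl13 is shown as a member whose run of C and T lies largely before the window and so is not marked.
Fau, chr19:6057927-6057956, plus strand: ggacgtgcgcgcccccaCTTCTTCCTCTTT
Rpl28, chr7:4792945-4792974, plus strand: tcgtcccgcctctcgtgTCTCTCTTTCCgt
Rps10, chr17:27635235-27635264, minus strand: acgctgcgccgcgcacgCCCCTTCCTTTCC
Rpl27a, chr7:109519175-109519204, plus strand: cgcgagacttcgtgagCTCCTCCCTTTTCC
Rpl13, chr8:123102330-123102359, plus strand: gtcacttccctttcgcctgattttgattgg
Of the 58 list genes in the sequence table, 18 held such a run in this window, against 7.35% of 27025 genes. Of the 47 in the table that were called lower in oligodendrocytes, 15 did (31.9%), so members with and without a run in the window were both among those that fell.

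In oligodendrocytes the summed level of the 79 ribosomal genes was 2071, 3199 and 2684 CPM in the AAV-EGFP libraries and 1246, 1234 and 1464 CPM in the AAV-B3GNT3 libraries. The groups did not overlap, and the young libraries stood at 1252, 1573 and 1341 CPM. Of the 79 genes tested, 66 were lower (83.5%) with a median log2 fold change of -1.03, and 38 of the 47 large-subunit and 28 of the 32 small-subunit genes were among them. In astrocytes the sums were 1709, 2479 and 1983 against 1087, 1161 and 1224 CPM, and 38 of 78 genes were lower (median -0.87). Excitatory neurons had 737, 997 and 936 against 593, 645 and 653 CPM, with 14 of 79 lower (median -0.56), and inhibitory neurons had 8 of 79 lower (median -0.61).

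The same direction was present where few or no members passed the test. Striatal-type projection neurons, oligodendrocyte precursors and microglia had medians of -0.60, -0.64 and -0.74 with 0 members called. In brain endothelial cells the sums were 10514, 7864 and 10792 against 3431, 3787 and 4511 CPM, the median was -1.40, and 6 of 64 tested members were lower. In each of the 8 classes the 3 AAV-B3GNT3 libraries lay below the 3 AAV-EGFP libraries, and no member was called higher in any class. The classes come from the same libraries and do not repeat the comparison independently. The median of this list was negative under every alternative in every class, from -1.51 in brain endothelial cells to -0.45 in striatal-type neurons over the single-library omissions. The number of members called was not stable. It fell to 0 in excitatory neurons without AAV-EGFP replicate 2, AAV-B3GNT3 replicate 1, AAV-B3GNT3 replicate 2 or young replicate 3, was 5 without AAV-EGFP replicate 3 and 6 without young replicate 2, and rose to 47 and 24 without AAV-EGFP replicate 1 and AAV-B3GNT3 replicate 3. In astrocytes it was 1, 4 and 1 without AAV-EGFP replicate 2 and AAV-B3GNT3 replicates 1 and 2, and in oligodendrocytes it was 43, 43 and 20. In inhibitory neurons it was at most 1 without AAV-EGFP replicates 2 and 3, AAV-B3GNT3 replicates 1 and 2 or young replicate 3, and at least 13 without AAV-EGFP replicate 1, AAV-B3GNT3 replicate 3 or young replicate 1.

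**Figure D2:**
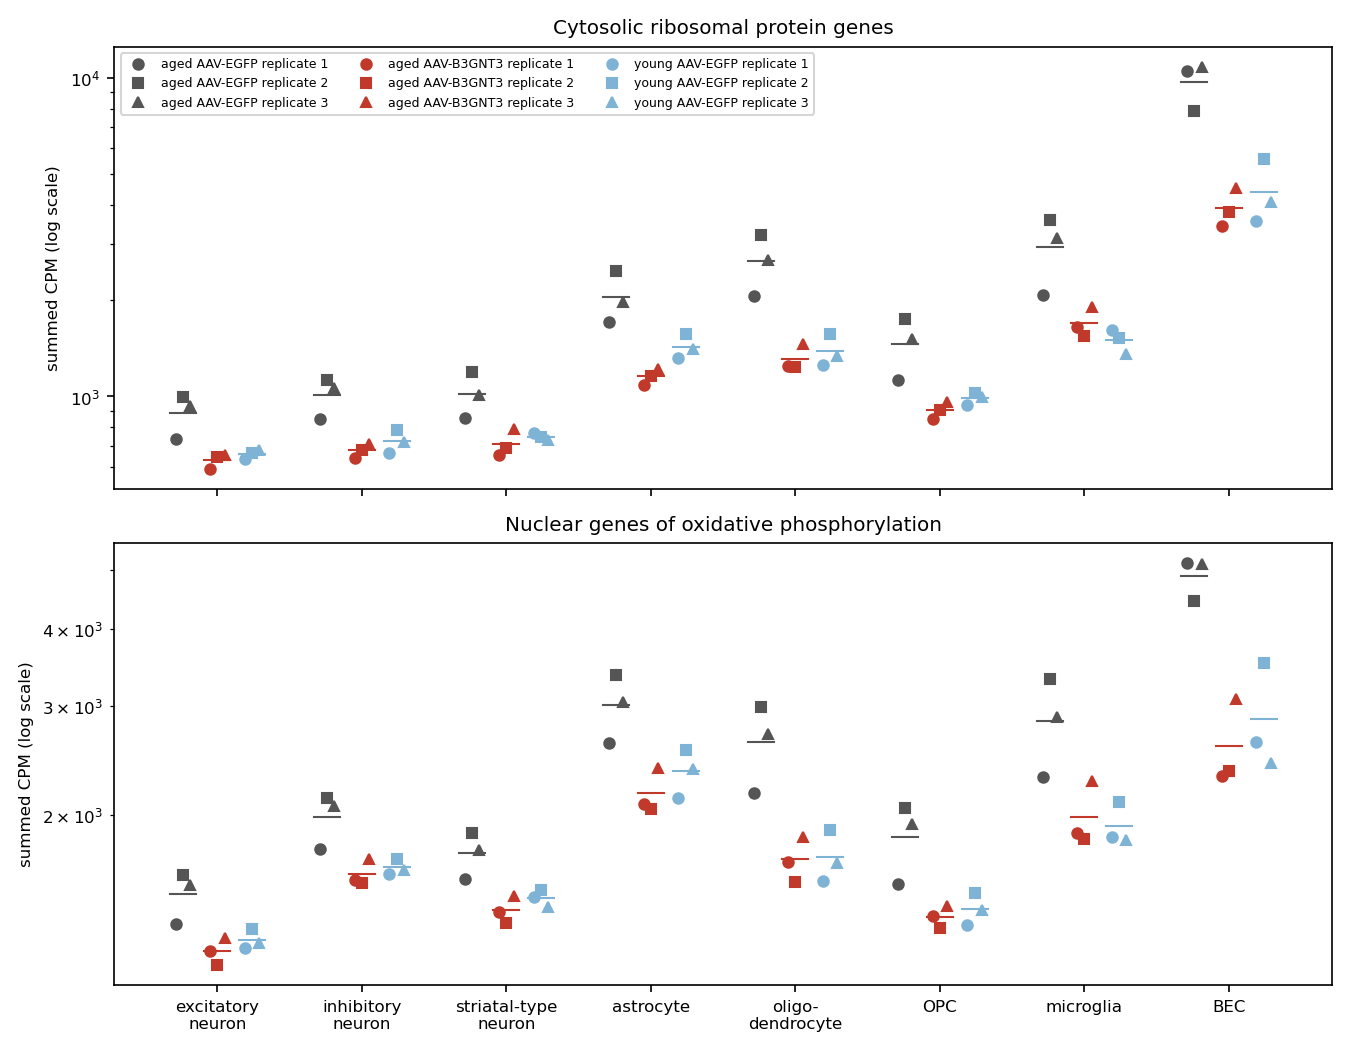
Summed CPM (vertical axis, log scale) of the cytosolic ribosomal protein genes (top) and of the nuclear genes of oxidative phosphorylation (bottom) in each library, by class (horizontal axis); symbols are replicates and the short lines are group means. In both panels and all 8 classes the 3 aged AAV-B3GNT3 libraries (red) lie below the 3 aged AAV-EGFP libraries (grey), for example 1234 to 1464 against 2071 to 3199 CPM for the ribosomal genes of oligodendrocytes.

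Single ribosomal genes show the size of the change. Rpl13 (ENSMUSG00000000740, chr8:123102350-123105244), a large-subunit protein, stood at 57.3, 82.4 and 67.7 CPM in the oligodendrocytes of AAV-EGFP mice and 20.6, 28.8 and 26.3 CPM in those of AAV-B3GNT3 mice (log2 fold change -1.45 ± 0.17 SE, adjusted p = 0.00382). It was called under each of 9 single-library omissions. Fau stood at 45.2, 77.8 and 60.1 against 18.0, 21.0 and 21.9 CPM in the same class. Both were also lower in excitatory neurons, by 0.96 and 1.09 on the log2 scale, where each held in 5 of 9 omissions. In astrocytes Rps10 stood at 29.6, 43.2 and 35.8 against 15.2, 14.6 and 14.0 CPM (log2 fold change -1.31 ± 0.19, adjusted p = 0.00613), and in brain endothelial cells Rpl27a stood at 355, 222 and 217 against 38.7, 92.1 and 81.2 CPM. Rpl13 and Rps10 overlap other annotated genes, and the use of strand in counting is not given in the sources used here.

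Nuclear genes of oxidative phosphorylation fell alongside. Their summed level in oligodendrocytes was 2172, 2994 and 2708 against 1676, 1556 and 1840 CPM, again with no overlap. Of 78 genes tested 43 were lower (median -0.78), among them 9 of 11 genes of complex IV (cytochrome c oxidase), 18 of 37 of complex I, 7 of 14 of complexes II and III, and 9 of 16 of ATP synthase. Astrocytes had 22 of 78 lower (median -0.62), excitatory neurons 15 (median -0.39), inhibitory neurons 6 (median -0.41) and striatal-type neurons 1 (median -0.43). Brain endothelial cells had 26 members tested, none called, and a median of -0.94 with sums of 5122, 4446 and 5105 against 2308, 2359 and 3086 CPM. Without AAV-EGFP replicate 2 the counts of excitatory neurons and astrocytes were both 0, and that of oligodendrocytes 18. Without AAV-B3GNT3 replicates 1 and 2 they were 0, 3 and 19, and 0, 0 and 9. In excitatory neurons the count of oxidative phosphorylation genes was 2 without AAV-EGFP replicate 3 and 0 without young replicate 3.

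Cox8a, a subunit of complex IV (chr19:7215153-7217616), was lower in 4 classes. In astrocytes it stood at 63.7, 84.4 and 65.7 against 24.4, 32.4 and 34.6 CPM (log2 fold change -1.23 ± 0.20, adjusted p = 0.0133). In excitatory neurons it stood at 20.3, 32.2 and 29.2 against 12.1, 14.0 and 15.3 CPM. Ndufb9, a subunit of complex I, fell further in oligodendrocytes, at 20.9, 32.2 and 24.3 against 5.40, 5.83 and 8.90 CPM (log2 fold change -1.91 ± 0.26, adjusted p = 0.00469). Of the genes of mitochondrial DNA 6 of 10 were called lower in oligodendrocytes (median -1.09) and 0 in each of the other 7 classes, where medians lay between -0.93 and -0.16. In oligodendrocytes their sum was 134, 204 and 218 against 59.97, 85.7 and 87.1 CPM. The difference from excitatory neurons was itself called for 5 of those 10 genes, mt-Co1, mt-Co3 and mt-Nd4 among them, but for 0 of 9 against astrocytes and 0 of 3 against microglia. The mitochondrial DNA genes called in oligodendrocytes numbered 1 without AAV-B3GNT3 replicate 2, 2 without AAV-EGFP replicate 2 or AAV-B3GNT3 replicate 1, and 3 without AAV-EGFP replicate 3.

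The cytoskeleton list, made of actins, tubulins, their binding proteins and the thymosins, followed. It had 17 of 22 lower in oligodendrocytes (median -0.91), 13 of 22 in astrocytes (median -0.94), 5 of 22 in excitatory neurons (median -0.41), 4 of 22 in inhibitory neurons (median -0.47) and 2 of 15 in brain endothelial cells (median -1.20), with none higher. Tuba1a, an alpha-tubulin, stood at 68.5, 124 and 98.2 against 28.8, 29.4 and 39.2 CPM in oligodendrocytes. Tmsb4x, a thymosin that binds actin monomers, stood at 642, 528 and 886 against 133, 198 and 181 CPM in brain endothelial cells (log2 fold change -2.003 ± 0.31, adjusted p = 0.0193). In astrocytes 0 members were called without AAV-EGFP replicate 2 or AAV-B3GNT3 replicate 2 and 3 without AAV-B3GNT3 replicate 1.

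Some members of smaller housekeeping lists were lower in oligodendrocytes and astrocytes. The list of replacement histones, the variants made outside of S phase, and HMG proteins, which bind chromatin, had 6 of 15 lower in oligodendrocytes (median -0.64) and 3 of 14 in astrocytes (median -0.50), with H3f3b at 73.1, 218 and 131 against 29.98, 27.7 and 42.0 CPM in oligodendrocytes. Glycolysis had 4 of 17 lower in oligodendrocytes (median -0.44) and 3 of 17 in astrocytes (median -0.023), among them Gapdh, which in astrocytes stood at 82.3, 129 and 101 against 47.6, 44.3 and 41.6 CPM (log2 fold change -1.23 ± 0.17, adjusted p = 0.00536). In astrocytes 4 of 33 chaperones (Hspa8, Hsp90ab1 and Hspa5 among them), 4 of 44 proteasome and ubiquitin genes and 4 of 50 translation factors were lower. Their medians were -0.023, -0.17 and 0.015, the first becoming -0.14 without AAV-EGFP replicate 1 and about -0.10 without AAV-EGFP replicates 2 or 3, so the calls of the chaperone and translation factor lists, and of glycolysis in astrocytes, stand for the called members alone.

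**Figure D3:**
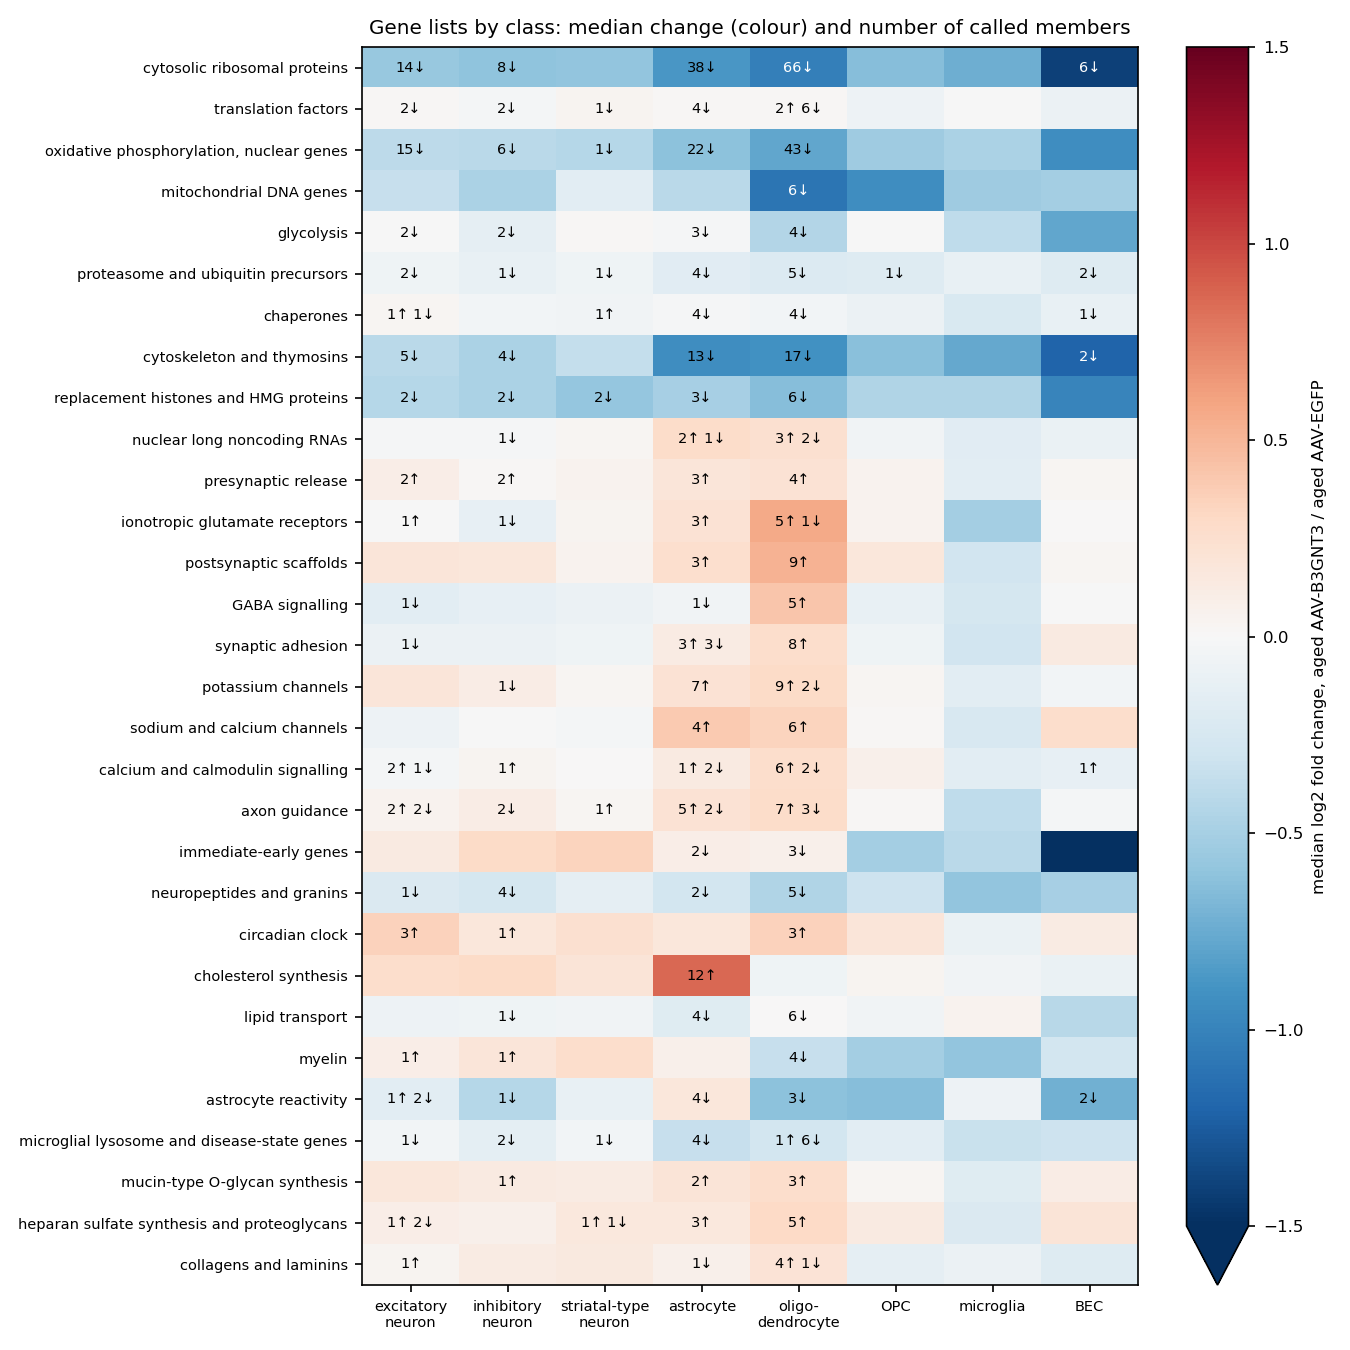
Median log2 fold change, aged AAV-B3GNT3 over aged AAV-EGFP (colour), of 30 gene lists (rows) that met the description rule in at least 1 of 8 classes (columns); numbers with arrows count the members called higher or lower. The blue rows of ribosomal, respiratory and cytoskeletal genes run across all classes, whereas the strongest red cell, cholesterol synthesis with 12 members higher, belongs to astrocytes.

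Of all genes tested, 140 were lower in 3 or more classes, 60 of them members of a list, 19 of these ribosomal and 14 of oxidative phosphorylation, whereas 14 genes were higher in 3 or more. Ubb, a polyubiquitin gene (chr11:62551171-62553213), was lower in 7 classes. In oligodendrocytes it stood at 127, 244 and 156 against 36.6, 41.6 and 57.7 CPM, and in brain endothelial cells at 355, 452 and 310 against 99.6, 96.7 and 131 CPM. Cst3, the secreted protease inhibitor cystatin C (chr2:148871722-148875692), Fth1, the ferritin heavy chain (chr19:9980598-9985098), Eif1, which helps to select the start codon, and Tmsb10 were each lower in 5. Fth1 stood at 412, 785 and 531 against 125, 158 and 168 CPM in oligodendrocytes and at 49.8, 70.8 and 42.9 against 15.7, 18.9 and 25.5 CPM in excitatory neurons. Gm15478, annotated as antisense within Atp8a1, was lower in 5 classes too, but its reads and those of Atp8a1 cannot be told apart without strand.

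Several library features moved with these falls. The genes called lower were short: their median span in the genome was 6594 bases in excitatory neurons, 6269.5 in astrocytes and 7104.5 in oligodendrocytes, against 24928, 29104 and 27891.5 bases for all genes tested. Genes called higher had median spans of 43590.5, 113591 and 151909 bases. Malat1, the abundant nuclear long noncoding RNA, was 5.27e+04, 5.73e+04 and 5.05e+04 against 3.58e+04, 3.62e+04 and 3.41e+04 CPM in oligodendrocytes, and its groups did not overlap in any of the 8 classes. Over all barcodes, with no class assigned, the ribosomal sum was 914, 1224 and 1319 against 796, 859 and 863 CPM, and that of oxidative phosphorylation overlapped, at 1489, 1740 and 1941 against 1499, 1447 and 1539 CPM. The part of free RNA, nuclear preparation, UMIs per nucleus or gene length in the falls was not tested. With 10% of each class's counts taken as free RNA and subtracted, 6 of the 14 ribosomal calls of excitatory neurons, 30 of the 38 of astrocytes and 58 of the 66 of oligodendrocytes were counted. The profile subtracted was that of all barcodes of the library, not of empty droplets.

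In astrocytes the list of cholesterol synthesis was described as higher. Of 23 tested members of the list, 12 were higher (52.2%, where 1.47% of all genes were), the median log2 fold change was 0.86, and every one of the 23 had a positive fold change. The summed level was 1317, 1069 and 1362 CPM in AAV-EGFP and 1962, 2516 and 1741 CPM in AAV-B3GNT3 libraries, with no overlap, and 1364, 1502 and 1340 CPM in the young. The members that rose span the route from its entry to its end. Acat2 and Hmgcs1 act before mevalonate, Idi1, Fdps, Fdft1 and Sqle carry it to squalene epoxide, Lss closes the sterol ring, and Cyp51, Hsd17b7 and Sc5d trim it to cholesterol.

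Cyp51 (ENSMUSG00000001467, chr5:4081145-4104746, minus strand) was the firmest. It stood at 54.3, 39.2 and 55.6 CPM in AAV-EGFP astrocytes and 129, 165 and 106 CPM in AAV-B3GNT3 astrocytes. The log2 fold change was 1.43 ± 0.19 with an adjusted p of 0.00466, called in 9 of 9 single-library omissions. Lss (chr10:76531588-76557138) stood at 18.7, 15.7 and 12.2 against 39.3, 65.1 and 34.6 CPM, and Fdps at 15.4, 11.8 and 11.0 against 32.2, 50.02 and 28.8 CPM. In each of the 3 the groups were separate. AAV-B3GNT3 replicate 2 was the highest library in each. Lss and Cyp51 overlap other genes on the opposite strand.

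Members that did not pass the test included Srebf2, which encodes the factor that switches these genes on, at 182, 146 and 160 against 176, 183 and 167 CPM (log2 fold change 0.11 ± 0.13). Msmo1, a sterol methyl oxidase, stood at 199, 196 and 212 against 244, 319 and 229 CPM (log2 fold change 0.39 ± 0.15, adjusted p = 0.151). Insig1 had a log2 fold change of 0.51 ± 0.16. The count of 12 was 1 without AAV-EGFP replicate 2, 1 without AAV-B3GNT3 replicate 2 and 5 without AAV-B3GNT3 replicate 1, and 5 in a fit of the 6 aged libraries alone, while the median stayed between 0.66 and 0.92 in every omission.

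**Figure D4:**
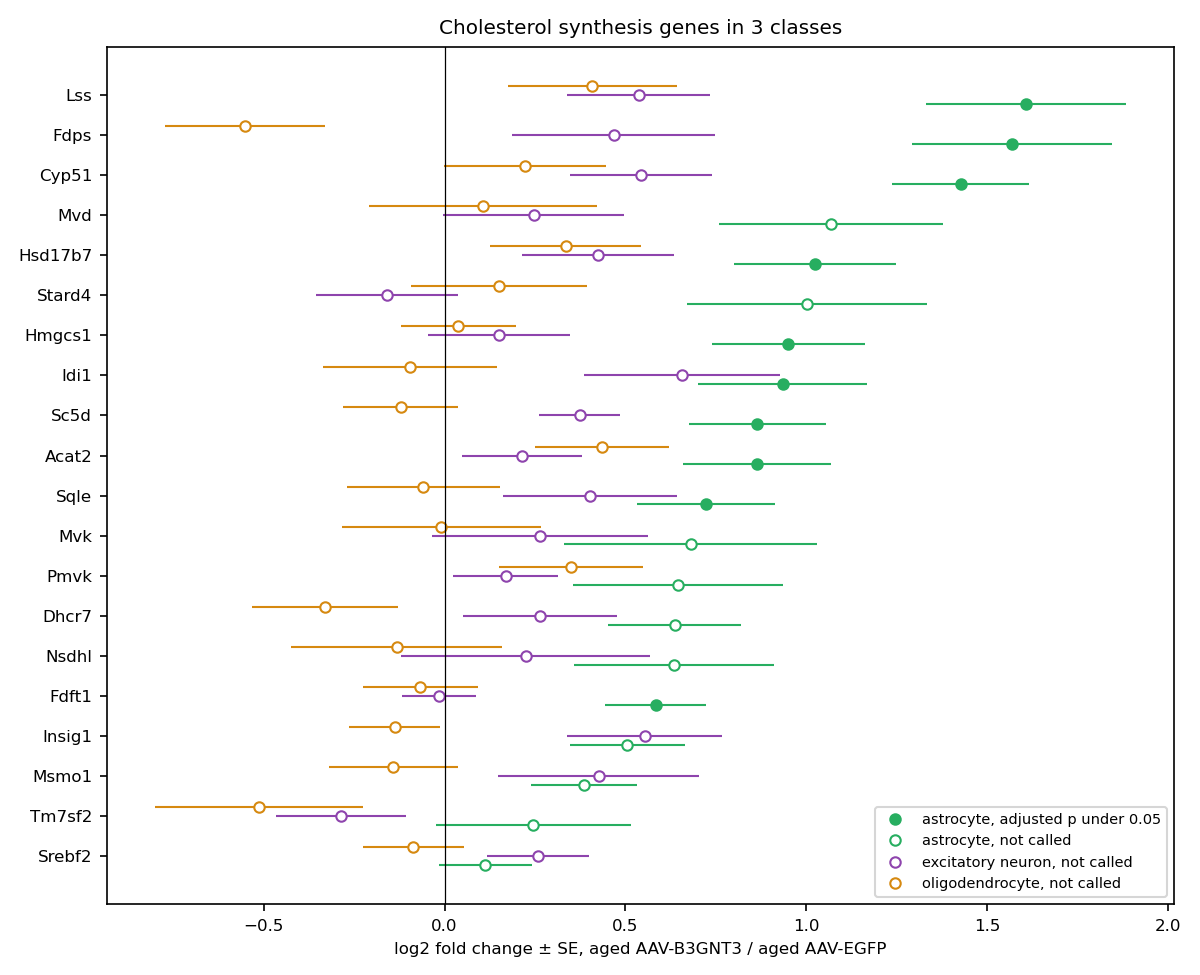
Log2 fold change ± SE, aged AAV-B3GNT3 over aged AAV-EGFP (horizontal axis), of cholesterol synthesis genes (vertical axis; not every member is drawn) in astrocytes, excitatory neurons and oligodendrocytes; filled points have an adjusted p under 0.05. Astrocyte points all lie right of 0, Cyp51 and Lss among the filled ones, whereas the oligodendrocyte points scatter around 0.

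The 250 bases before the start are shown for 3 of the members, since the known regulators of this pathway bind near the start. Capitals mark CCAAT on either strand (ATTGG when read on the printed strand), the box bound by NF-Y, and the sterol regulatory element TCACNCCAC on either strand. The motifs do not overlap in these windows, which are from RefSeq, GRCm38.p6.
Hmgcs1, chr13:119690101-119690350, plus strand: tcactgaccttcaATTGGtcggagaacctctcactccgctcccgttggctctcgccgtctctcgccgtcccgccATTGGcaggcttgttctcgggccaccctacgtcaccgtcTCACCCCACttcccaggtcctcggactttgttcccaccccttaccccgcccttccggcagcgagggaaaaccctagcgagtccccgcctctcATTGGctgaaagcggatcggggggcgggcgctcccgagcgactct
Cyp51, chr5:4104698-4104947, minus strand: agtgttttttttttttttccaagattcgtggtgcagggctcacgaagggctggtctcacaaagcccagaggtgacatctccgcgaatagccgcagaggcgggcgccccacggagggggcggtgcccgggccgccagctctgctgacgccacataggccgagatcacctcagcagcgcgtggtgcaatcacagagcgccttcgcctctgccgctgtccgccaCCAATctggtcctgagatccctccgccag
Lss, chr10:76531355-76531604, plus strand: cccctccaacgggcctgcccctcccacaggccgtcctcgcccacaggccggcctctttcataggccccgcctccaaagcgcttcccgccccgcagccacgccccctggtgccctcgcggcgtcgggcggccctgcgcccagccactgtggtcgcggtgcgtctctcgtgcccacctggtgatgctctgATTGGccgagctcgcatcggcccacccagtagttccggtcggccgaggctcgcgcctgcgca
CCAAT was held by 15 of the 17 list genes in the table (88.2%), by 6 of the 7 of these that were called in astrocytes, and by 34.5% of 27025 genes. The exact element TCACNCCAC was held by 1 of the 17 (5.88%) and by 1.04% of all genes. Fdps, Fdft1 and Sqle were not in the sequence table.

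Outside astrocytes the pathway was not called. Excitatory neurons had 0 of 24 members of cholesterol synthesis called, a median of 0.26 and sums of 487, 306 and 368 against 487, 510 and 425 CPM, in which AAV-EGFP replicate 1 lay at the level of the AAV-B3GNT3 libraries. Without that replicate 10 members were called in excitatory neurons and the median was 0.54. Oligodendrocytes had 0 of 24 called, a median of -0.063 and overlapping sums. Over all barcodes, with no class assigned, the sum was higher with AAV-B3GNT3, at 483, 333 and 452 against 624, 695 and 507 CPM. That sum also follows the share of each class in a library. The change in astrocytes exceeded that in excitatory neurons, in the test of the difference, for 5 of 23 members. These included Cyp51 (1.43 against 0.54), Lss (1.61 against 0.54), Hmgcs1 (0.95 against 0.15) and Fdft1 (0.58 against -0.015). It exceeded that in oligodendrocytes for Fdps, Cyp51, Sc5d, Hmgcs1 and Insig1, with Fdps at 1.57 against -0.55.

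Several lipid carriers were lower in astrocytes. Apoe, the main lipoprotein of the brain (chr7:19696109-19699188), stood at 434, 764 and 732 CPM in AAV-EGFP and 296, 281 and 257 CPM in AAV-B3GNT3 astrocytes (log2 fold change -1.21 ± 0.20, adjusted p = 0.0138, 7 of 9 omissions). Clu, the lipoprotein and chaperone clusterin, stood at 164, 265 and 259 against 136, 138 and 104 CPM (log2 fold change -0.86 ± 0.20, adjusted p = 0.0321, 4 of 9 omissions). Fabp5 and Dbi, which bind fatty acids and acyl-CoA, were lower as well. That made 4 of 18 lipid transport genes (22.2%), with a list median of -0.18. Microglial markers, of which 0 of 3 tested were called, summed to 60.3 to 87.3 against 50.3 to 60.1 CPM in astrocytes and did not overlap. Microglia also express Apoe and Cst3, and the part of their RNA in the lipid transport and reactivity calls was not tested. The lipid transport count was 0 without AAV-EGFP replicate 2 or AAV-B3GNT3 replicate 2, 1 without AAV-B3GNT3 replicate 1 or 3, and 2 without AAV-EGFP replicate 3. Oligodendrocytes had 6 of 18 of the same list lower, Apoe, Apod, Fabp3 and Fabp5 among them, with a median of 0.0044 that ranged from -0.098 to 0.063 over single-library omissions.

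The reactivity list shared Apoe and Clu and added Cst3 and Cryab, a small heat shock protein, for 4 of 13 lower. Cst3 stood at 532, 850 and 744 against 216, 182 and 189 CPM in astrocytes, with no overlap (log2 fold change -1.86 ± 0.18, adjusted p = 0.000643), and was called in 9 of 9 omissions. Gfap, the classical marker of reactive astrocytes, stood at 50.5, 122 and 114 against 123, 99.5 and 126 CPM and was not called (log2 fold change 0.27 ± 0.23). The median of the list was 0.17, opposite in sign to its 4 calls, and it became -0.029 without AAV-EGFP replicate 1. The count of astrocyte reactivity genes lower in astrocytes was 1 without AAV-EGFP replicate 2 or AAV-B3GNT3 replicate 2. The same list was described as lower in oligodendrocytes too, with a median of -0.61 that ranged from -0.84 to -0.47 over single-library omissions. Cryab was also called lower in excitatory neurons and oligodendrocytes. Cst3 was also called lower in these classes, in inhibitory neurons and in brain endothelial cells. What part RNA shared between classes had in these calls was not tested.

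Some channel, axon guidance, synaptic and heparan sulfate genes rose in astrocytes. They comprised 7 of 44 potassium channels, 4 of 25 sodium and calcium channels, 5 of 59 axon guidance genes, and 3 each of the ionotropic glutamate receptor, postsynaptic scaffold, presynaptic release, heparan sulfate and synaptic adhesion lists. Kcnd3, a transient potassium channel, stood at 40.1, 51.5 and 54.4 against 113, 196 and 65.8 CPM, and Sema3e, a semaphorin, at 10.4, 8.83 and 6.32 against 21.1, 15.8 and 16.9 CPM. Dcc of the axon guidance list was called lower, and the adhesion list also had 3 genes lower. Cadm2 stood at 5648, 6415 and 4823 against 2898, 2658 and 4093 CPM (log2 fold change -0.81 ± 0.18, adjusted p = 0.0277), and Adgrl3 was lower by 0.81 as well. Neuron markers in astrocytes overlapped between the groups, with summed levels of 292 to 549 against 411 to 501 CPM for excitatory and 523 to 841 against 387 to 697 CPM for inhibitory markers. Of the 8 excitatory markers 1 was called higher and 1 lower, and of the inhibitory markers 0 were called. Without AAV-EGFP replicate 2 or AAV-B3GNT3 replicate 2, 0 of the potassium channels, sodium and calcium channels and axon guidance genes were called, and without AAV-EGFP replicate 3 the counts higher were 3, 0 and 3. The median of the potassium channels in astrocytes fell from 0.22 to 0.045 without AAV-EGFP replicate 3, that of axon guidance genes from 0.22 to 0.060 and that of synaptic adhesion genes from 0.13 to 0.027. The presynaptic release median moved from 0.18 to 0.090 in the same omission, and that of sodium and calcium channels from 0.39 to 0.25 without AAV-B3GNT3 replicate 2.

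In oligodendrocytes 14 lists were described as higher, and most of them hold genes known from neurons. Postsynaptic scaffolds led with 9 of 20 higher (median 0.52), followed by 9 of 51 potassium channels, 8 of 43 synaptic adhesion genes, 7 of 64 axon guidance genes, 6 of 25 sodium and calcium channels, 6 of 32 calcium and calmodulin genes, 5 of 22 GABA genes (median 0.42) and 5 of 24 ionotropic glutamate receptor genes (median 0.57). Fewer members were lower, at 2 potassium channels, 3 axon guidance genes, 2 calcium and calmodulin genes and 1 ionotropic receptor gene. Shank3, a scaffold of the postsynaptic density, stood at 6.42, 5.80 and 5.24 against 11.8, 17.0 and 11.8 CPM (log2 fold change 1.22 ± 0.23, adjusted p = 0.0106). Grin2a, an NMDA receptor subunit, stood at 109, 151 and 86.5 against 208, 318 and 211 CPM, and Gria1, an AMPA receptor subunit, at 103, 133 and 63.8 against 182, 267 and 171 CPM. Camk1d, a calmodulin-dependent kinase (chr2:5293457-5714515), stood at 122, 165 and 89.4 against 239, 281 and 272 CPM and held in 9 of 9 omissions.

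Summed levels of several of these lists overlapped between the groups. Scaffold sums were 4954, 5355 and 4422 against 4707, 5382 and 5055 CPM in oligodendrocytes, and adhesion sums overlapped too. Over all barcodes, with no class assigned, the sums were lower with AAV-B3GNT3 for scaffolds (13871 to 15688 against 13021 to 13774 CPM), GABA genes (5527 to 5921 against 5077 to 5253 CPM) and presynaptic release (13397 to 14251 against 11982 to 13297 CPM), and overlapped for ionotropic receptors, potassium channels and adhesion genes. These sums also follow the share of each class in a library. Excitatory neuron markers overlapped in oligodendrocytes, at 389 to 710 against 591 to 655 CPM, with 1 of 8 called higher and 1 lower. Inhibitory neuron markers were lower with AAV-B3GNT3, at 2357 to 2756 against 1841 to 2226 CPM, with 1 of 8 tested called higher and 2 lower. Young oligodendrocytes had Grin2a at 361, 270 and 335 CPM and Gria1 at 242, 230 and 235 CPM. Without AAV-B3GNT3 replicate 2, 0 scaffold, 0 potassium channel and 0 adhesion genes were called higher, and without AAV-EGFP replicate 3 the counts were 2, 4 and 3. The scaffold count was 5 without AAV-EGFP replicate 2 or young replicate 2. With 10% free RNA subtracted the medians in oligodendrocytes were 1.21 for ionotropic glutamate receptors, 0.92 for GABA genes and 0.85 for scaffolds. The profile subtracted, that of all barcodes, was itself lower with AAV-B3GNT3 for scaffolds and GABA genes. The part of free RNA was therefore not tested by these medians. Without AAV-EGFP replicate 3 the ionotropic receptor median was 0.35, that of synaptic adhesion genes fell from 0.27 to 0.12, that of calcium and calmodulin genes from 0.27 to 0.10 and that of sodium and calcium channels from 0.33 to 0.14. The presynaptic release median in oligodendrocytes fell from 0.22 to 0.11 in the same omission and was 0.40 with 10% free RNA subtracted. In excitatory neurons the medians were 0.18 for scaffolds and -0.16 for GABA genes. For scaffolds, ionotropic glutamate receptors and GABA genes the difference between the classes was called for 7 of 20, 8 of 24 and 11 of 22 members. All had the oligodendrocyte change above the excitatory one, as had 635 of all 12963 genes tested.

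Glycan genes were of interest because the delivered enzyme makes glycans. In oligodendrocytes 3 of 36 genes of mucin-type O-glycan synthesis were higher, where 4.03% of all genes were. All were polypeptide GalNAc-transferases, the family that starts these chains. By their coordinates all 3 are longer than 151909 bases, the median span of genes called higher in this class. The median of all genes tested was 27891.5 bases, and the part of gene length was not tested. Galntl6 (chr8:57774052-58912640) stood at 182, 213 and 130 against 247, 316 and 331 CPM (log2 fold change 0.77 ± 0.19, adjusted p = 0.0239). Galnt13 (chr2:54436317-55118309) stood at 56.5, 55.8 and 38.9 against 69.2, 110 and 97.5 CPM, and Galnt18 (chr7:111471661-111779977) at 23.0, 22.001 and 12.2 against 35.2, 66.5 and 28.4 CPM. Each held in 6 of 9 omissions. The list had 0 calls without AAV-EGFP replicate 3 or AAV-B3GNT3 replicate 2, 1 without AAV-EGFP replicate 2 and 5 without AAV-B3GNT3 replicate 3. Heparan sulfate genes had 5 of 36 higher, with the sulfotransferase Hs6st3 at 126, 154 and 85.9 against 222, 297 and 237 CPM. In brain endothelial cells, the target of the vector, 0 of 20 tested O-glycan genes were called and the list median was 0.11. C1galt1, which builds the core 1 structure that B3GNT3 extends, stood there at 59.2, 41.7 and 48.9 against 60.9, 46.1 and 62.5 CPM (log2 fold change 0.17 ± 0.42).

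Myelin genes were lower in oligodendrocytes in 4 of 21 cases, with a list median of -0.34. The summed level was 1.43e+04, 1.58e+04 and 1.53e+04 against 1.29e+04, 1.17e+04 and 1.22e+04 CPM. Opalin, a membrane protein of the myelin paranode (chr19:41061710-41077113), stood at 529, 536 and 515 against 292, 186 and 331 CPM (log2 fold change -0.96 ± 0.19, adjusted p = 0.011). Cnp, a myelin enzyme, stood at 144, 217 and 195 against 115, 97.7 and 100 CPM, and Mog and Mag, glycoproteins of the outer and inner sheath, were lower by 0.59 and 0.45. Mbp, an abundant myelin message, had a log2 fold change of -0.22 ± 0.15 and was not called. Mog, Mag and Mbp were among the markers that named the class, so their levels also describe which nuclei entered it. The 8 oligodendrocyte markers together stood at 13677 to 15834 against 10699 to 11984 CPM. Without AAV-B3GNT3 replicate 2 no myelin gene was called and without AAV-EGFP replicate 2 there were 2.

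**Figure D5:**
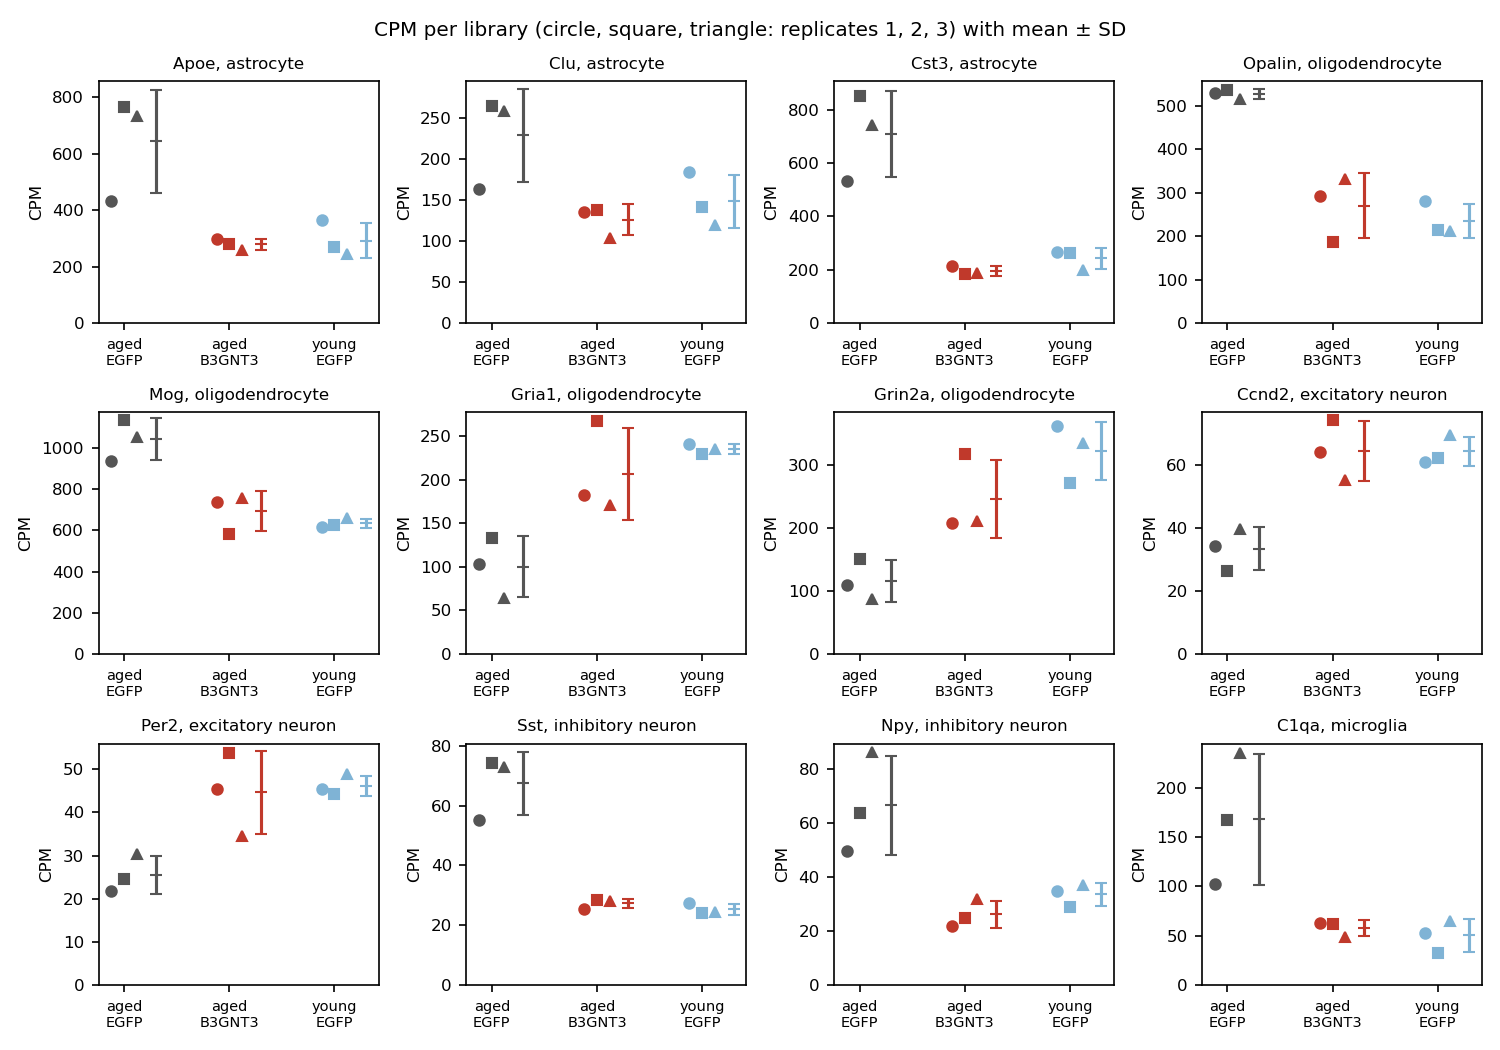
CPM (vertical axis) per library for 12 genes in the class named above each panel, with the group mean ± SD beside the points (circles, squares and triangles are replicates 1, 2 and 3); young AAV-EGFP is shown for reference. Apoe, Clu, Cst3, Opalin and Mog lie lower in aged AAV-B3GNT3 than in aged AAV-EGFP, and Gria1 and Grin2a lie higher in oligodendrocytes.

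Members of 4 other lists were called in oligodendrocytes. The immediate-early list had 3 of 24 lower, Jun, Jund and Ier5, with Jun at 13.1, 38.0 and 18.0 against 6.20, 7.29 and 7.17 CPM. The list median of 0.075 had the opposite sign and ranged from -0.17 without AAV-EGFP replicate 1 to 0.38 without AAV-EGFP replicate 2. Over all barcodes, with no class assigned, the immediate-early sum was higher with AAV-B3GNT3, at 653 to 704 against 558 to 627 CPM. Lamp1, a lysosomal membrane protein, stood at 106, 153 and 135 against 66.0, 67.6 and 75.2 CPM and was 1 of 6 lower genes of 21 in the list of lysosomal and disease-state genes. Fth1 and Fabp5 of this list were lower in astrocytes too. The list median there was -0.35, and -0.21 without AAV-EGFP replicate 2. Among collagens and laminins 4 of 30 were higher and 1 lower, with Col4a1 of the basement membrane at 4.55, 5.32 and 3.93 against 9.20, 12.2 and 8.37 CPM. Their median of 0.21 was 0.039 without AAV-EGFP replicate 1 and 0.12 without AAV-B3GNT3 replicate 2. Fibroblast markers in oligodendrocytes summed to 4.87 to 8.22 against 8.24 to 16.6 CPM without overlap, with 1 of 3 tested called higher. Pericyte markers overlapped, at 8.57 to 22.2 against 14.2 to 26.6 CPM, with 1 of 4 called higher, and the part of either in the collagen calls was not tested. Of 12 long noncoding RNAs 3 were higher, Meg3, Rmst and Snhg11, and 2 were lower, Malat1 and Neat1.

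Of 20 clock genes, 3 were called higher in excitatory neurons and 3 in oligodendrocytes. In excitatory neurons they were Per2, Bhlhe40 and Nr1d2, which act in the repressing limbs of the clock. Per2 (chr1:91415982-91459324) stood at 21.8, 24.5 and 30.4 CPM in AAV-EGFP and 45.5, 53.9 and 34.6 CPM in AAV-B3GNT3 libraries (log2 fold change 0.80 ± 0.16, adjusted p = 0.037), beside young values of 45.3, 44.2 and 48.8 CPM. Per1 stood at 30.8, 40.0 and 39.7 against 53.6, 61.4 and 44.7 CPM with an adjusted p of 0.0559. In oligodendrocytes they were Npas2, Cry1 and Rora, with Npas2, a partner of the activator Bmal1, at 15.5, 17.4 and 10.9 against 32.8, 48.1 and 24.7 CPM. In the test of the difference between these classes, 0 clock genes had the excitatory change above and 3 the oligodendrocyte change above, Npas2 and Rora among them. Per2 had log2 fold changes of 0.80 in excitatory neurons and 0.92 in oligodendrocytes, where its adjusted p was 0.0683. No circadian call remained in excitatory neurons without AAV-EGFP replicate 2, AAV-B3GNT3 replicate 1 or 2, or young replicate 2 or 3, nor in the fit of the 6 aged libraries. In oligodendrocytes the circadian clock count was 1 without AAV-EGFP replicate 2 or AAV-B3GNT3 replicate 1 and 0 without AAV-B3GNT3 replicate 2. The time of day at which each brain was taken is not given in the labels.

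Among the genes discussed by the study for excitatory neurons, 3 were called. Ccnd2, a D-type cyclin, stood at 34.3, 26.4 and 39.8 against 64.3, 74.4 and 55.3 CPM (log2 fold change 0.95 ± 0.15, adjusted p = 0.0281). Wnt5a, a secreted Wnt ligand, stood at 4.03, 3.83 and 4.69 against 8.52, 7.87 and 8.22 CPM (log2 fold change 0.97 ± 0.18, adjusted p = 0.0339), and the young libraries at 4.36, 3.08 and 3.13 CPM. Rims4, a presynaptic active zone protein, stood at 40.9, 32.4 and 42.6 against 68.1, 58.8 and 50.4 CPM (adjusted p = 0.0419). Foxo3 and Smad1 had log2 fold changes of 0.54 and 0.33 with adjusted p-values of 0.0529 and 0.0935. Because the study chose these genes on the same libraries, the counts are no independent evidence of their direction. The lists around them showed little: Wnt signalling had 2 of 52 higher (median 0.17), insulin, mTOR and FOXO signalling 1 of 29 (median 0.16), and BMP and TGF-beta signalling 1 of 33 (median 0.20). Other large changes in this class were Cdh19, a cadherin, at 1.94, 1.73 and 1.09 against 3.83, 6.79 and 4.58 CPM, and Tmsb10 at 8.66, 12.3 and 12.8 against 3.25, 3.53 and 4.79 CPM. Markers moved in this class too. The 8 oligodendrocyte markers summed to 110 to 176 against 182 to 221 CPM with 1 called higher, and the 8 excitatory neuron markers to 4174 to 4939 against 3356 to 3777 CPM with 1 called lower. Neither overlapped between the groups, and their part in the changes of single genes was not tested.

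Of 21 neuropeptide and granin genes, 4 were lower in inhibitory neurons, and the list median was -0.26. Sst, the peptide somatostatin that marks a class of interneurons (chr16:23889573-23890958), stood at 55.3, 74.3 and 73.0 CPM in AAV-EGFP and 25.5, 28.4 and 28.1 CPM in AAV-B3GNT3 libraries, with 27.5, 24.1 and 24.4 CPM in the young. Its log2 fold change was -1.31 ± 0.13 with an adjusted p of 0.000773, and it was the only named gene of this class to hold in 9 of 9 omissions. Npy stood at 49.7, 63.7 and 86.1 against 21.9, 24.8 and 31.8 CPM, and Cck and Pcsk1n, which encodes an inhibitor of prohormone cleavage, were lower as well. Sst is among the markers that named the class. The 9 markers together stood at 16123 to 21307 against 12596 to 15627 CPM, and which interneuron subtypes each library held was not tested. The same 4 genes were called lower in oligodendrocytes, where Sst stood at 23.0, 42.6 and 22.1 against 11.6, 13.1 and 12.2 CPM. Npy and Pcsk1n were also called lower in astrocytes, and Pcsk1n in excitatory neurons. Oligodendrocytes are not known as a source of these peptides, and the part of RNA from other nuclei was not tested. Without AAV-EGFP replicate 2, AAV-B3GNT3 replicate 1 or AAV-B3GNT3 replicate 2, 1 of the 21 was called in inhibitory neurons.

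No list met the rule in striatal-type projection neurons, whose largest named rise in a protein-coding gene was the glypican Gpc5, at 21.1, 23.1 and 15.2 against 52.4, 105 and 45.3 CPM (adjusted p = 0.0175). Gpc5 is abundant in astrocytes, at 1.31e+04, 1.39e+04 and 1.22e+04 against 1.07e+04, 1.10e+04 and 1.20e+04 CPM. Astrocyte markers in the striatal-type class were lower with AAV-B3GNT3, at 1383 to 2103 against 1234 to 1300 CPM, with 0 of 4 tested called. In oligodendrocyte precursors 2 genes were called, and Ubb was one of them, at 52.0, 117 and 91.6 against 19.8, 22.6 and 24.5 CPM.

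In microglia neither complement gene that the study discussed passed the test. C1qa stood at 102, 168 and 235 against 62.6, 61.7 and 48.6 CPM (log2 fold change -1.54 ± 0.33, adjusted p = 0.381), and C1qc at 108, 407 and 312 against 97.5, 103 and 122 CPM (adjusted p = 0.598). C1qc overlapped between the groups through AAV-EGFP replicate 1. Both genes passed under 3 alternatives, with adjusted p in edgeR of 0.00131 and 0.00599 for C1qa and C1qc without a filter on low counts, 0.00141 and 0.00647 with doublets kept and 0.00132 and 0.00879 with finer clustering. C1qc also passed without AAV-EGFP replicate 1 (adjusted p = 0.0168), and under the other alternatives the adjusted p ranged from 0.0618 to 1. In AAV-EGFP replicate 1 microglia carried excitatory neuron markers at 1756 CPM, against 484 to 987 CPM in the other 5 aged libraries. The young libraries held 1059, 1787 and 1660 CPM, and the part of neuronal RNA was not tested. The microglial markers overlapped between the aged groups, at 3788 to 7067 against 4542 to 5598 CPM. The 12 tested complement genes had a median of -0.44 and the 16 homeostatic genes -0.078, with none called. C1qa is one of the class markers.

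Brain endothelial cells, the cells that the vector was built to reach, had 20 called genes on 51 to 119 nuclei per library. Besides Ubb, Cst3, the thymosins and ribosomal genes, Bsg (basigin, a glycoprotein of the barrier endothelium, chr10:79704491-79711969) stood at 3.63e+03, 1.87e+03 and 2.58e+03 against 703, 797 and 1.07e+03 CPM (log2 fold change -1.65 ± 0.30, adjusted p = 0.0248). Bsg was called lower in astrocytes and oligodendrocytes too. Camk1d was higher, at 254, 354 and 272 against 647, 631 and 718 CPM (adjusted p = 0.0451), held in 1 of 9 omissions. The vascular lists were not described: 0 of 19 barrier transporters (median -0.055), 0 of 17 junction and adhesion genes (median -0.064) and 0 of 15 VEGF, angiopoietin and Notch genes (median -0.16) were called. Cldn5, the tight junction protein, stood at 1.23e+03, 1.08e+03 and 990 against 365, 424 and 662 CPM (log2 fold change -1.18 ± 0.27, adjusted p = 0.0596). It is a class marker, and the vector's promoter is of the same gene.

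Other endothelial lists had medians below 0 and no member called. Antigen presentation and interferon genes had a median of -1.05 over 11 tested, with H2-D1 at 270, 278 and 277 against 77.5, 96.7 and 156 CPM (adjusted p = 0.0864). Immediate-early genes had a median of -1.68 over 13, but their sums of 964, 4821 and 2599 against 747, 1027 and 1050 CPM overlapped, and AAV-EGFP replicate 1 lay within the range of the AAV-B3GNT3 libraries. Endothelial markers summed to 14673 to 17529 against 9865 to 10899 CPM and pericyte markers overlapped. The 20 calls became 0 without AAV-EGFP replicate 3 or AAV-B3GNT3 replicates 1 or 2, 9 without AAV-B3GNT3 replicate 3, 12 without young replicate 3 and 188 without AAV-EGFP replicate 1. They became 2 when doublets were kept and 0 in the fit of the 6 aged libraries.

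Whether the change of a gene differed between classes was tested directly. The change differed between excitatory neurons and oligodendrocytes for 820 of 12963 genes (6.33%), between excitatory neurons and astrocytes for 312 of 12389 (2.52%) and between oligodendrocytes and astrocytes for 260 of 11889 (2.19%). The first class had the higher change for 185, 65 and 178 genes in the same order, and the lower one for 635, 247 and 82. Counts of list members that differed, here and above, are to be read beside these. Excitatory and inhibitory neurons differed at 0 of 12988 genes in edgeR, with 959 at an unadjusted p under 0.05, and oligodendrocytes and microglia at 0 of 8105, with 596. A lack of calls does not show that changes were the same. Without a filter on low counts these pairs differed at 217 and 121 genes. Of the ribosomal list 7 of 79 members fell further in oligodendrocytes than in excitatory neurons, and 4 of 78 of the oxidative phosphorylation list did. Over all genes, 185 of 12963 had the excitatory change above the oligodendrocyte one. Between oligodendrocytes and astrocytes, cholesterol synthesis differed for 5 of 23 members, all with the astrocyte change above the oligodendrocyte one, and Fdps had a difference of -2.10 ± 0.27 (adjusted p = 0.00232). In the other direction Gabrb1, a GABA receptor subunit (chr5:71658113-72149037), was 0.88 higher in oligodendrocytes and 0.70 lower in astrocytes on the log2 scale, and the difference was called (1.56 ± 0.21, adjusted p = 0.00277). In astrocytes Gabrb1 stood at 4.53e+03, 4.36e+03 and 3.54e+03 against 2.47e+03, 2.56e+03 and 2.59e+03 CPM. Gabrb1 was one of 19 genes called in opposite directions in different classes, most of which were higher in oligodendrocytes and lower in astrocytes or neurons. Slc4a4, one of the markers that named astrocytes, was another of the 19, also higher in oligodendrocytes and lower in astrocytes. Astrocyte nuclei numbered 624, 781 and 669 in AAV-EGFP and 850, 1435 and 602 in AAV-B3GNT3 libraries. The part of astrocyte RNA in the oligodendrocyte changes was not tested.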

How the data were processed

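Nuclei from pooled cortex and hippocampus were profiled by droplet RNA sequencing. The authors deposited raw UMI counts per gene and barcode, aligned to mm10 with Cell Ranger, for which the submitters' notes give version 4.0.0 and the matrix header 7.2.0. Use of introns and strand is not given in the sources used here. The authors' removal of free RNA and doublets and their integration are not in the deposited counts, and no cell annotation was used.

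A nucleus needed 200 to 5000 genes and no more than 10% of its UMIs from mitochondrial DNA (74895 of 77823 barcodes), and 4528 barcodes within these limits were removed as likely doublets. Clusters (Leiden resolution 0.3, 15 components) were named from marker genes. The rule that leaves a cluster unnamed for its doublet score was set after the clusters were seen. Counts were summed per library and class and tested with edgeR 4.0.16 (TMM, filterByExpr minimum 10, quasi-likelihood test, Benjamini-Hochberg adjustment), with all 3 groups in 1 fit, after a check on simulated data. Differences between classes were tested as the interaction of class and group in edgeR, with the library as a block. DESeq2 1.42.0 was an alternative. Each library is 1 mouse.

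The libraries, gene lists and tests were chosen with earlier results of these data known. Genes named were B3gnt3, the 2 largest rises and falls of each class with at least 20 calls, up to 4 called members per described list, the 6 genes called in most classes, and genes the study discussed. Others named were chosen after their values were seen, and some genes are not reported here. Values are CPM of the class sum, scaled by TMM. Those of B3gnt3 and the sums over all barcodes are CPM without this scaling. CPM is not adjusted for gene length, so levels of different genes were not compared. Among genes named, Rpl28, Tuba1a, Ndufb9, Gapdh, Cryab, Pcsk1n, Jun, Jund, Ccnd2, Wnt5a, Bhlhe40, Kcnd3, Sema3e, Shank3, Cadm2, Adgrl3, Gabrb1, Galntl6, Col4a1, Lamp1, Cnp, Meg3 and Rmst overlap other annotated genes and are uncertain.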

Additional observations from a re-analysis of the deposited data

Results flagged for a closer look

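For the following genes the change with AAV-B3GNT3 differed between classes in the edgeR test of the difference itself. Values are log2 differences of the change, the first class minus the second, with the adjusted p.

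Between excitatory neurons and oligodendrocytes, mt-Nd4 differed by 1.59 (adjusted p = 0.00387) and Jun by 1.53 (adjusted p = 0.0133), both further down in oligodendrocytes. Rmst differed by -1.69 (adjusted p = 0.00594) and Ccbe1 by -1.69 (adjusted p = 0.00829).

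Between excitatory neurons and astrocytes, the sterol genes Cyp51 and Lss differed by -0.88 (adjusted p = 0.023) and -1.06 (adjusted p = 0.0326). Sema3e differed by -1.52 (adjusted p = 0.01), the heparan sulfotransferase Hs3st4 by -1.69 (adjusted p = 0.0126) and Nnat by 1.54 (adjusted p = 0.0423). Nnat lies within Blcap, and the reads of the pair cannot be told apart.

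Between oligodendrocytes and astrocytes, Fdps differed by -2.10 (adjusted p = 0.00232) and Cyp51 by -1.17 (adjusted p = 0.00954). In the other direction, Lama3 differed by 2.52 (adjusted p = 0.00574), Col4a5 by 2.28 (adjusted p = 0.0497), the phagocytic receptor Mertk by 1.84 (adjusted p = 0.0296), Gpc5 by 1.63 (adjusted p = 0.0159) and Gabrb1 by 1.56 (adjusted p = 0.00277). The part of astrocyte RNA among oligodendrocyte counts in these differences was not tested.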

How the results depend on the processing

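Of 1144 values of 67 list medians under the alternatives, 1108 stayed within the spread of the libraries. Counted by ratio and sign instead, 87 differed by over 1.5 times from the reported value and 13 had the other sign. The 13 belonged to 5 medians. They were astrocyte reactivity, translation factors (0.015, omissions -0.087 to 0.10) and glycolysis (-0.023, omissions -0.21 to 0.0030) in astrocytes, and immediate-early genes (0.075, omissions -0.17 to 0.38) and lipid transport (0.0044, omissions -0.098 to 0.063) in oligodendrocytes. With 1 library left out, 18 of the 67 medians moved by over 1.5 times or changed sign without AAV-EGFP replicate 3, 13 each without AAV-EGFP replicate 2 and AAV-B3GNT3 replicate 2, 12 without AAV-EGFP replicate 1, 7 each without AAV-B3GNT3 replicates 1 and 3 and 1 without each young library. Sodium and calcium channels moved from 0.39 to 0.84 in astrocytes with 10% free RNA subtracted and 0.25 without AAV-B3GNT3 replicate 2, and in oligodendrocytes from 0.33 to 0.62 with free RNA subtracted, 0.22 without AAV-B3GNT3 replicate 2 and 0.14 without AAV-EGFP replicate 3. That of neuropeptides in inhibitory neurons moved from -0.26 to -0.12 without AAV-EGFP replicate 3 and -0.45 without AAV-EGFP replicate 1. Of 4340 values of named genes, 3471 stayed either called or not called, 854 lost a call, 15 gained one and none changed sign. The median of astrocyte reactivity in astrocytes (0.17) became -0.088 with 10% free RNA subtracted and ranged from -0.029 to 0.21 over single-library omissions, the lowest without AAV-EGFP replicate 1. Over the same omissions the cytoskeleton and thymosins median ranged from -1.06 to -0.64 in astrocytes, -1.07 to -0.68 in oligodendrocytes and -1.20 to -0.97 in endothelial cells, that of oxidative phosphorylation from -1.23 to -0.87 in endothelial cells and that of cholesterol synthesis from 0.14 to 0.54 in excitatory neurons. With DESeq2, excitatory neurons had 1304 calls, striatal-type neurons 199, oligodendrocyte precursors 30, microglia 4 and endothelial cells 48. Without a filter on low counts, the counts were 1026 in excitatory neurons, 1066 in inhibitory neurons, 621 in striatal-type neurons, 1235 in astrocytes, 2275 in oligodendrocytes, 251 in precursors, 53 in microglia and 130 in endothelial cells. With only the 6 aged libraries there were 53 in excitatory neurons, 236 in astrocytes, 0 in precursors and 0 in endothelial cells. With 10% free RNA subtracted there were 154 in excitatory, 93 in inhibitory and 11 in striatal-type neurons, 0 in precursors and 8 in endothelial cells. Finer clustering gave 21 in inhibitory neurons, 192 in precursors and 125 in microglia, and keeping doublets gave 202 in precursors, 211 in microglia and 2 in endothelial cells. For the differences between classes, no filter gave 1526 genes for excitatory neurons against oligodendrocytes, 842 for excitatory neurons against astrocytes, 713 for oligodendrocytes against astrocytes, 217 for excitatory against inhibitory neurons and 121 for oligodendrocytes against microglia, and the 6 aged libraries gave 63 for excitatory neurons against astrocytes and 143 for oligodendrocytes against astrocytes. The causes were not tested.

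Leaving out 1 library at a time gave 0 to 1464 calls in excitatory neurons, 1 to 903 in inhibitory neurons, 1 to 362 in striatal-type neurons, 13 to 790 in astrocytes, 129 to 1811 in oligodendrocytes, 0 to 75 in precursors, 0 to 3 in microglia and 0 to 188 in endothelial cells. Where this left 2 libraries in a group, they were assumed to vary like the others.

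The replicate numbers do not pair the libraries: deviations of same-numbered libraries correlated between -0.33 and 0.12. With the replicate block there were 322 calls in excitatory neurons, 219 in inhibitory neurons, 54 in striatal-type neurons, 426 in astrocytes, 1500 in oligodendrocytes, 1 in precursors, 0 in microglia and 21 in endothelial cells. Endothelial cells had the fewest UMIs of the 8 classes, 137900 to 244808 per aged library.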
